A study of Mus musculus with 21 samples.

Results

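Cytochrome c oxidase, complex IV of the respiratory chain, takes electrons from cytochrome c, passes them to oxygen and pumps protons across the inner mitochondrial membrane. Its catalytic core consists of 3 subunits encoded by mitochondrial DNA, and the remaining subunits are encoded in the nucleus, imported, and fitted around the core with the help of assembly factors. Several nuclear subunits exist as isoforms of different genes, and those described here are the isoforms that the brain uses. Neurons depend on oxidative phosphorylation for the ATP that ion pumping at synapses consumes, and cytochrome c oxidase activity has long been used as a histological marker of neuronal activity. The genes were chosen by name as brain-expressed nuclear subunits of the complex: Cox4i1, Cox5a, Cox5b, Cox6a1, Cox6b1, Cox6c, Cox7a2, Cox7b, Cox7c and Cox8a. All 10 were found among the 55487 Ensembl genes of the count table, and all 10 passed the filter on low counts.

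Poly-A RNA was sequenced from the hippocampus of wild type male C57BL/6 mice, with 1 library per mouse. In the 9 mice of the maternal separation (MS) group, the whole nest had been kept from the dam for 4 hr per day from postnatal day 10 to day 17, while part of the nesting material was also taken from the home cages, so that separation and scarce nesting material cannot be told apart. The 12 control mice had standard rearing (SR), and hippocampi of all mice were taken at 10 weeks of age. No transgene or drug was used, and the question was whether MS leaves a lasting trace in the hippocampal transcriptome. Whole nests were assigned to a condition and the labels name no nest. The mice are therefore named by sets of 3 with adjoining animal numbers, and each set holds 1 condition: A, B and C are MS sets, while D, E, F and G are SR sets. Littermates share a dam, so p-values that treat mice as independent may be too small.

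The MS library A2 lay apart from the others, with a score of 27.1 on the first component of a PCA where the other 20 lay between -11.7 and 11.3. The study had also removed 1 outlier before testing but does not name it, so whether that was A2 is not known. The summed level of 10 striatal neuron markers was 2694 CPM in A2 (the counts of a gene scaled to the normalised total of its library) and 186 to 994 CPM in the other libraries. The summed level of 10 markers of hippocampal neurons was 315 CPM in A2 and 727 to 1500 CPM in the others. A2 was left out of every test below unless stated, which left 8 MS and 12 SR mice. Their total counts lay between 17276810 and 26450808, and the lowest count of a nuclear subunit in any of the libraries was 527, for Cox7c. The counting error of a subunit in 1 library averaged 1.23% to 3.52% of its count in the 2 groups, and for Cox5a in SR mice it was 3.12% where the whole spread over mice was 4.07%. No libraries were identical. The closest pair within a condition, A3 and B3, had a chi-square of 3.58 per degree of freedom over genes where sampling noise alone gives about 1.

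The genes lie on 9 chromosomes of the GRCm38 build, with Cox5a and Cox7a2 both on chromosome 9 and Cox7b on the X chromosome. The promoters are shown because the nuclear subunits are textbook targets of the nuclear respiratory factors NRF1 and NRF2 (the latter made of the ETS protein Gabpa and its partner Gabpb1). RefSeq windows from 250 bases before to 50 after the transcription start were at hand for 8 of the 10 genes (GRCm38.p6), and those of Cox4i1 and Cox6c were not analysed here. Both strands were searched for 4 short motifs. The NRF1 core GCGCANGCG was found in 1 of the 8 windows, Cox6a1, and in 6.25% of all 32851 windows. The ETS motif CCGGAAG was found in 3 of the 8, Cox6a1, Cox6b1 and Cox8a, and in 8.86% of all windows. YY1's AAGATGGCG was found in 0 of the 8 and in 1.40% of all windows. The Sp motif GGGCGG was found in 3 of the 8, Cox5a, Cox6a1 and Cox7a2, and in 35.7% of all windows. A match is only a run of letters, and nothing about a factor follows from its presence or absence. The stretches from 200 bases before to 30 after the start follow for the 3 genes with an ETS match and for Cox5a, the gene with the smallest p of the 10 below. They read 5′ to 3′ along the gene, and capitals mark the NRF1 and ETS matches on either strand.
Cox6a1, chr5:115348929-115349158, strand -: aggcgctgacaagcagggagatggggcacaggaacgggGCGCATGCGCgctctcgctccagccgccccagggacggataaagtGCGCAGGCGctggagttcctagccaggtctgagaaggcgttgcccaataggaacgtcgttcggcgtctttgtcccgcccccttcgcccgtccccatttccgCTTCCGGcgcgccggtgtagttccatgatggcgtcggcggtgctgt
Cox6b1, chr7:30626085-30626314, strand -: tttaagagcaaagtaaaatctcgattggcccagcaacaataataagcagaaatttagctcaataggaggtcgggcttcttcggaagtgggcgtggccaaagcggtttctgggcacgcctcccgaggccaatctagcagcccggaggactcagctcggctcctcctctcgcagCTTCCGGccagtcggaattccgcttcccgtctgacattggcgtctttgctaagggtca
Cox8a, chr19:7217587-7217816, strand -: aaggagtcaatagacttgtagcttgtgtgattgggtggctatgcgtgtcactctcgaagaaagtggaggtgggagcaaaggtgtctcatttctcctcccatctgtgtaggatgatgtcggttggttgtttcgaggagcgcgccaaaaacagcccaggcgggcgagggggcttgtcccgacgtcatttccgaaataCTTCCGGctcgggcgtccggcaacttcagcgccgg
Cox5a, chr9:57521032-57521261, strand +: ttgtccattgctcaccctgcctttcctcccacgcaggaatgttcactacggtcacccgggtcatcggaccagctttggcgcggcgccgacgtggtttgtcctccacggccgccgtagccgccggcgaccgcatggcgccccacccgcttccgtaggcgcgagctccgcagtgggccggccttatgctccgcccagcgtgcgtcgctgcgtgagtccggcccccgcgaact
In Cox6a1 the first run in capitals is 2 overlapping NRF1 matches on opposite strands, the second is a further NRF1 match, and the third is the ETS motif, 16 bases before the start. All ETS matches shown lie on the opposite strand and read CTTCCGG. The ETS match began 28 bases before the start in Cox6b1 and 5 bases before it in Cox8a, and a second match in Cox8a, at 33 bases after the start, lies beyond the stretch shown. The printed stretch of Cox5a has no capitals, and its Sp matches began 13 bases before and 37 bases after the start.

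Levels of different genes were compared as CPM per kb of exon. In SR mice, Cox4i1, the largest nuclear subunit and among the first to join the core, had the highest level, 184.6 ± 8.09 CPM per kb (SD, n = 12). Cox8a, the smallest subunit, had 167.6 ± 18.4 CPM per kb, and Cox6a1, the widespread isoform of a subunit at the contact of the paired complexes, had 166.9 ± 15.7 CPM per kb. The ranges of these 3 genes over the SR mice overlapped. Cox6b1, which faces the intermembrane space near the cytochrome c site, followed with 73.5 ± 4.15 CPM per kb, and its range met that of no other gene. Cox5b, a zinc-binding subunit on the matrix side, and Cox7a2 had 41.99 ± 4.35 and 41.0 ± 2.62 CPM per kb. The small membrane subunits Cox7c and Cox7b had 32.1 ± 3.28 and 31.1 ± 1.95 CPM per kb. Cox5a, on the matrix side, had 21.8 ± 0.888 CPM per kb, and Cox6c, a membrane subunit, had 18.6 ± 1.24 CPM per kb. Neighbours from Cox5b downwards overlapped in range with the next gene, except Cox7b and Cox5a.

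The order depended on the length used. Cox6c has 3567 bases in the union of its exons but 738 in its principal transcript, and its level was 89.9 ± 5.98 CPM per kb by the latter, which moved it from the 10th place to the 4th. By principal transcripts Cox4i1 stood further above the rest, at 374 ± 16.4 CPM per kb. Cox6a1 followed with 205.2 ± 19.3 and Cox8a with 188.7 ± 20.8 CPM per kb, and Cox7b was lowest with 37.7 ± 2.36 CPM per kb. The place of Cox4i1 at the top, and the gap between the first 3 genes and the other 7, held by both lengths.

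**Figure D1:**
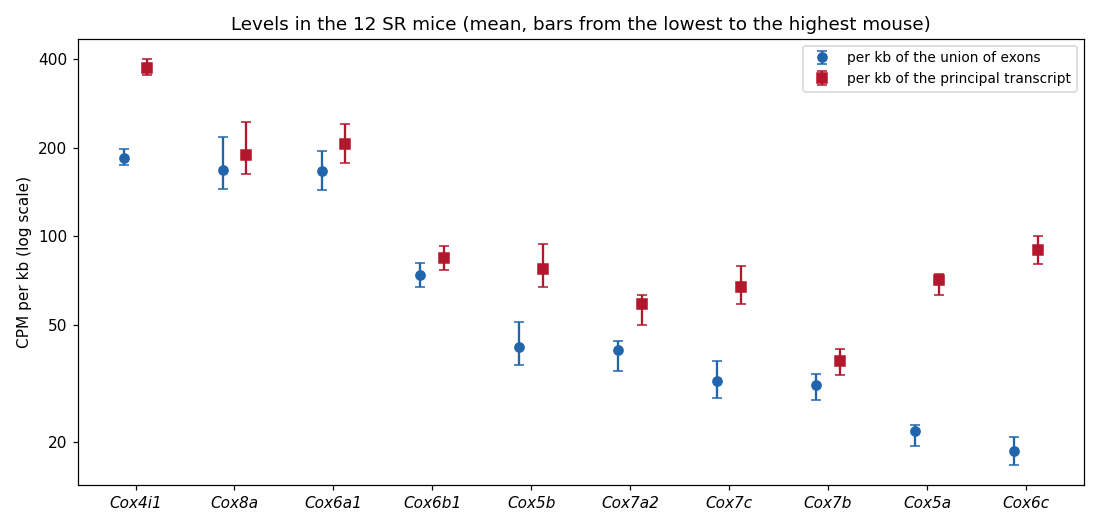
Levels of the 10 nuclear subunits in SR mice as CPM per kb on a log axis, ordered by the level per kb of the union of exons (circles) and with the level per kb of the principal transcript beside it (squares). Points are means of 12 mice and bars run from the lowest to the highest mouse, with Cox4i1 highest by both lengths and Cox6c between 16.6 and 20.7 CPM per kb by the first and between 80.5 and 100.2 by the second.

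In MS mice all 10 genes had higher mean levels than in SR mice, by 9.1% to 18.6%. None was called, that is, passed the threshold of 0.05 after Benjamini-Hochberg adjustment over the 18146 genes tested with edgeR's quasi-likelihood test, and the adjusted p-values lay between 0.111 and 0.424. The background was 2 genes called higher in MS, 0.0110% of those tested, and none called lower. All 10 had an unadjusted p under 0.05 with a higher level in MS, a combination found in 6.62% of all genes tested, and a log2 fold change above 0 was found in 50.3% of them. The median log2 fold change of the 10 was 0.20, and that of all genes tested was 0.00. DESeq2's Wald test called 2 of the 10 at the same threshold, Cox5a (adjusted p = 0.0170) and Cox6b1 (adjusted p = 0.0240), where 0.495% of the genes it tested were called higher. limma-voom, fitted with a random effect for the set, called none. With A2 included, all 10 were higher in MS with a median of 0.20 and an unadjusted p under 0.05, and edgeR called none.

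Cox5a had 46.1 CPM in the lowest, 51.7 in the median and 59.8 in the highest MS mouse. In SR mice it had 40.7, 46.3 and 47.9 CPM in the same order. All MS mice used but C3 were above the highest SR mouse. The log2 fold change was 0.19 ± 0.0417 (SE, edgeR adjusted p = 0.111).

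Cox6b1 had 47.1, 62.2 and 64.7 CPM in the lowest, median and highest MS mouse. The SR mice had 47.5, 51.1 and 57.3 CPM. Here too 7 of the 8 MS mice lay above all SR mice, while C3 lay below all of them. The log2 fold change was 0.21 ± 0.0485 (edgeR adjusted p = 0.117).

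Cox7a2, a subunit at the side where complex III attaches in supercomplexes, had 33.5, 45.8 and 48.6 CPM in the lowest, median and highest MS mouse. The SR mice had 32.8, 39.3 and 41.7 CPM. Again 7 of the 8 MS mice were above the highest SR mouse, and the lowest mouse of all was D1 of the SR group. The log2 fold change was 0.20 ± 0.0544 (edgeR adjusted p = 0.162).

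Cox4i1 had 248.9, 333.8 and 409.5 CPM in the lowest, median and highest MS mouse. In the SR mice it had 270.4, 283.8 and 305.6 CPM, the narrowest relative range of the 10 genes but for Cox5a by the coefficient of variation (CV, 4.38% in SR). The MS mice spread on both sides of the SR range, with C3 below it and A1, A3, B2, B3 and C1 above it. The log2 fold change was 0.20 ± 0.0615 (edgeR adjusted p = 0.196).

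Cox6c resembled Cox4i1, with 5 MS mice above and C3 below the SR range, and the groups overlapped more for the remaining subunits. Cox6c had 54.3, 79.5 and 95.1 CPM in the lowest, median and highest MS mouse, and 59.4, 65.5 and 73.9 CPM in SR mice (log2 fold change 0.22 ± 0.0711, edgeR adjusted p = 0.226). Cox8a had 82.1, 122.6 and 153.2 CPM in MS and 89.4, 100.8 and 134.3 CPM in SR, with the log2 fold change farthest from 0 of the 10, 0.25 ± 0.0859 (edgeR adjusted p = 0.276). Only 3 MS mice exceeded the highest SR mouse for Cox8a, since the SR mouse E3 had 134.3 CPM where the next SR mouse, F3, had 111.7 CPM. Cox7c had 28.9, 42.5 and 55.7 CPM in MS and 31.8, 35.6 and 42.7 CPM in SR (log2 fold change 0.24 ± 0.0882, edgeR adjusted p = 0.299). Cox5b had 58.1, 76.2 and 88.4 CPM in MS and 57.9, 64.7 and 81.1 CPM in SR (log2 fold change 0.17 ± 0.0673, edgeR adjusted p = 0.324). Just 1 MS mouse, A3, was above the SR range for Cox5b. Cox7b, the gene with the smallest difference, had 33.2, 41.5 and 46.2 CPM in MS and 33.7, 37.8 and 41.3 CPM in SR (log2 fold change 0.13 ± 0.0542, edgeR adjusted p = 0.368). Cox6a1 had 93.5, 135.2 and 154.0 CPM in MS and 101.0, 117.7 and 137.0 CPM in SR (log2 fold change 0.16 ± 0.0749, edgeR adjusted p = 0.424).

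**Figure D2:**
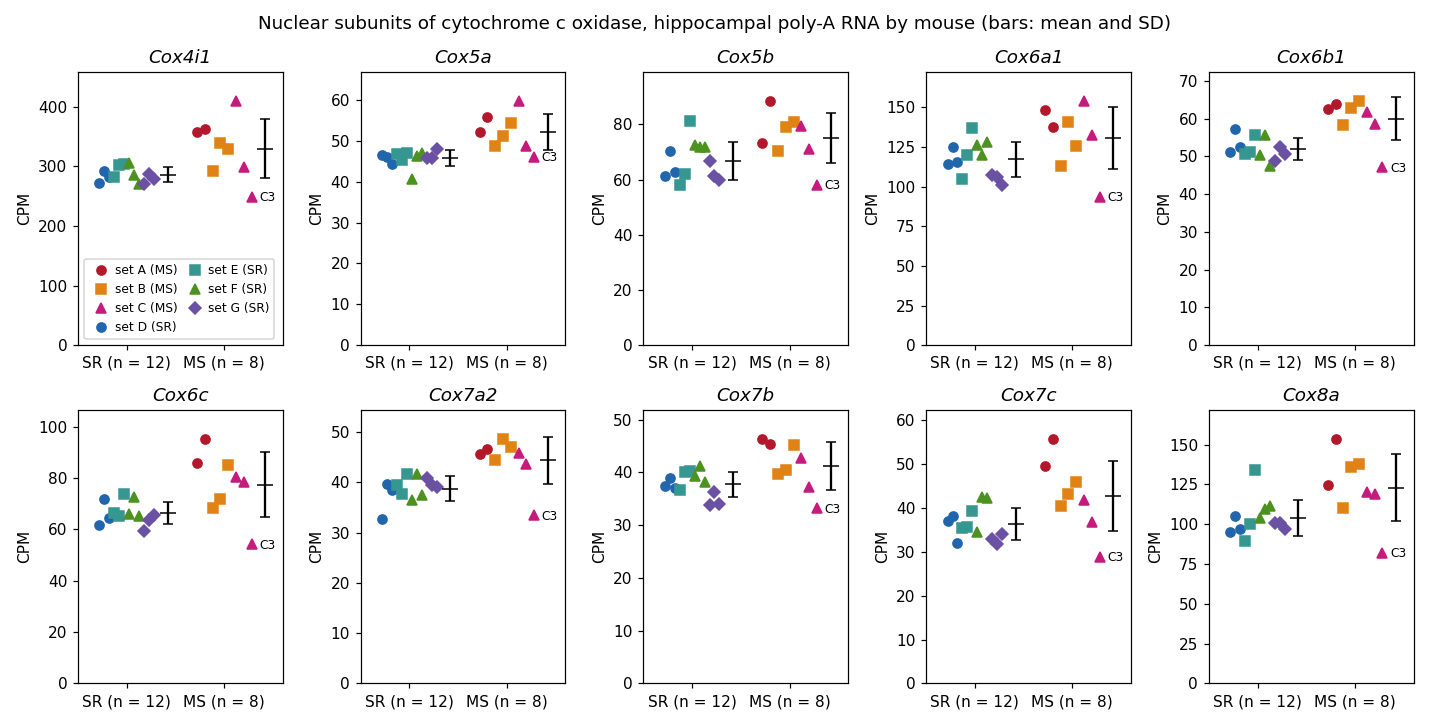
CPM of each nuclear subunit in every mouse used (SR, n = 12, left; MS, n = 8, right), with shapes and colours for the sets of mice and black bars for mean and SD, on axes that start at 0. C3 is the lowest MS mouse in all 10 panels, and the other 7 MS mice lie above all SR mice for Cox5a, Cox6b1 and Cox7a2.

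The MS mouse C3 ran against its group. It was the lowest MS mouse for all 10 genes and lay below the lowest SR mouse for 7 of them, the exceptions being Cox5a, Cox5b and Cox7a2. Of the other MS mice, A3 was above the highest SR mouse for all 10 genes, A1 and B3 for 8 each, B2 and C1 for 7 each, C2 for 4 and B1 for 3. The CV over mice was larger in MS than in SR for 10 of the 10 genes, 8.46% to 18.9% against 4.07% to 11.0%, and for 66.8% of all genes tested. Without C3 it was larger in MS for 7 of the 10, with values of 3.55% to 14.0%, and for 63.6% of all genes tested.

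When each library was left out in turn, all 10 genes stayed higher in MS every time, and the median log2 fold change lay between 0.17 and 0.25. C3 had the strongest hold on the calls. Without it edgeR called 6 of the 10 genes, Cox4i1, Cox5a, Cox6b1, Cox6c, Cox7a2 and Cox8a, where 0.525% of genes were called higher. Adjusted p was lowest for Cox6b1 (0.00655, log2 fold change 0.25 ± 0.0377) and Cox7a2 (0.00667, log2 fold change 0.25 ± 0.0409). The genes not called had adjusted p-values of 0.0588 (Cox7c), 0.105 (Cox5b), 0.125 (Cox6a1) and 0.134 (Cox7b). Without C2, another MS mouse of the same set, Cox5a alone was called (adjusted p = 0.0444), where 0.285% of genes were called higher. No other single library changed a call. C3 was singled out after its values were seen, and no label sets it apart.

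Sets C and G have higher animal numbers than the other 5 sets, so the comparison was repeated within each range of numbers. Among the lower numbers (5 MS and 9 SR mice) 5 genes were called by edgeR, where 0.864% of genes were called higher: Cox6b1 and Cox7a2 (adjusted p = 0.0183 for both), Cox5a (0.0323), Cox4i1 (0.0384) and Cox7c (0.0465). The median log2 fold change of the 10 was 0.24. Among the higher numbers, with 3 mice a group, none was called and none had an unadjusted p under 0.05, and the median was 0.15 with standard errors of 0.0996 to 0.159. Without set C as a whole 8 genes were called, all but Cox5b and Cox6a1, where 1.14% of genes were called higher. C3 belongs to set C, so this fit and that of the lower numbers both leave it out. Their calls are therefore not separate from those made without C3 alone. The difference between the ranges was itself tested as an interaction, and edgeR called none of the 10 genes and 0.00% of all genes. The interaction farthest from 0 was that of Cox7a2, whose log2 fold change was lower by 0.23 ± 0.110 among the higher numbers (adjusted p = 0.567), and it was the only one of the 10 with an unadjusted p under 0.05.

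The means of the sets within a condition were also compared, and no subunit passed the test. Among the 3 MS sets, Cox7c went from a mean of 52.6 CPM in set A over 43.1 in set B to 35.9 in set C, and 7 of the other 9 genes had their lowest mean in set C. For Cox7c this was the only difference among MS sets with an unadjusted p under 0.05, and edgeR called none of the 10 (0.347 for Cox7c after adjustment) and 0.0952% of all genes. Among the 4 SR sets, Cox6a1 had 118.3, 120.5, 125.0 and 104.7 CPM in sets D to G, and Cox7b had 37.8, 39.0, 39.6 and 34.7 CPM. These were the genes with an unadjusted p under 0.05 among SR sets. Neither was called (adjusted p = 0.649 for both), nor were the other 8, and 0.0158% of all genes were. With counts summed within each set, so that 3 MS sets stood against 4 SR sets, the median log2 fold change was 0.22, 8 genes had an unadjusted p under 0.05, and edgeR called none (adjusted p of 0.382 to 0.617). Over all genes, 1753 of 21752 had an unadjusted p under 0.05 in that fit, in either direction, and 0 were called.

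**Figure D3:**
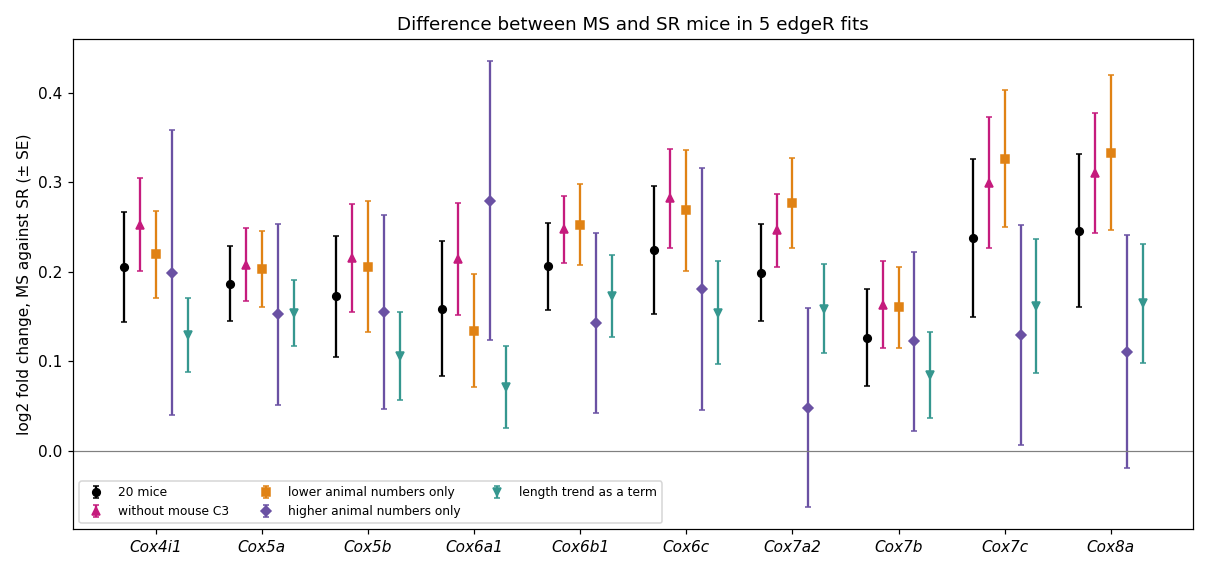
log2 fold change of MS against SR with its standard error for each nuclear subunit in 5 edgeR fits, all 20 mice, without mouse C3, the lower or the higher animal numbers alone, and with the length trend of the library as a term. All 50 points lie above 0, and the standard errors are widest among the higher animal numbers, where 3 mice stand against 3.

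The 10 genes varied together from mouse to mouse. Over the 20 mice, with log2 CPM centred within each group, Pearson's r of the 45 pairs ran from 0.41 (Cox5a with Cox5b) to 0.93 (Cox5b with Cox8a) with a median of 0.71. The values of a pair share their library, so whatever moves many genes of a library enters each r. C3, the lowest MS mouse for all 10 genes, enters each r as well. For these pairs r without C3 is not given here, nor is r of pairs of other genes. Cox6c followed the mean of the 10 most closely (r = 0.93) and Cox5a least (r = 0.67). The genes outside the 10 whose pattern was most like that mean were Rpl36a (r = 0.95), Rpl37a (0.95), Elob (0.95), Usmg5 (0.93) and Rpl36 (0.93), over the same 20 mice. Rpl36a, Rpl37a and Rpl36 encode ribosomal proteins, Elob a subunit of elongin and Usmg5 a small subunit of ATP synthase. Wdr48 (r = -0.86), Pcyt1b, Ercc4, Zdhhc5 and Gnptab (each r = -0.78 or -0.79) were least like it, and their exons span 5047 to 8927 bases where those of the 5 most like genes span 383 to 2755. Without the MS mouse C3, r was 0.81 to 0.89 for the 5 most like genes. For the 5 least like it was then -0.67 to -0.55.

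Transcript length moved with these values. The exons of the 10 genes span 619 to 3567 bases, and in each library the correlation over genes of relative log2 CPM with log2 exon length was taken as its length trend. Over the 20 mice, the mean log2 CPM of the 10 genes had r = -0.77 with this trend, -0.79 within groups and -0.61 within groups without C3. C3 had the highest trend, 0.151, and the lowest mean of the 10 genes. C1 had the lowest trend, -0.183, and was the highest mouse for 3 of them. The MS mice had trends of -0.183 to 0.151 (median -0.0245) and the SR mice of -0.0781 to 0.0642 (median 0.0304). With the trend as a term in edgeR, all 10 genes were still higher in MS with a median log2 fold change of 0.15, 8 had an unadjusted p under 0.05, and none was called, with Cox6a1 lowest at 0.07 ± 0.0459 (adjusted p = 0.588). Over all genes, 2002 of 18146 had an unadjusted p under 0.05 in that fit, in either direction. Of the 5420 protein-coding genes tested with exons of the same range of lengths, 64.4% were higher in MS with a median of 0.04. Of the 1195 of these that were at least as abundant as the lowest of the 10, 67.5% were higher with a median of 0.03, and 16.6% had an unadjusted p under 0.05 with a higher level in MS. This match is loose, since these lengths are unions of exons and the principal transcripts of the 10 genes span only 540 to 1001 bases. Genes matched by principal transcript were not compared.

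The choroid plexus, a tissue next to the hippocampus, was present in uneven amounts. The summed level of its 10 markers ran from 55.3 to 4278 CPM in MS mice (median 3383) and from 31.1 to 4625 CPM in SR mice (median 855). All 10 markers were detected in every library, 10 of 10 had a higher mean in MS and none was called by edgeR or had an unadjusted p under 0.05, with Clic6 (log2 fold change 1.08 ± 0.655) and Kl (0.80 ± 0.521) having the smallest p. The mean of the 10 subunits had r = 0.34 with the choroid plexus score over the 20 mice and 0.18 within groups. With the score as a term the median log2 fold change was 0.18, 7 genes had an unadjusted p under 0.05, and edgeR called none. Over all genes, 1512 of 18146 had an unadjusted p under 0.05 in that fit, in either direction. In C3 the choroid markers summed to 1414 CPM. In bulk tissue, a change in the mix of cells and a change of RNA per cell cannot be told apart.

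Markers of the other cell types differed less between the groups, and edgeR called none of them. The 10 hippocampal neuron markers had a median log2 fold change of -0.05 (Wfs1 -0.14 and Neurod6 -0.15 with the smallest p), and the 10 oligodendrocyte markers 0.02 (Opalin -0.26, the only marker of any list with an unadjusted p under 0.05, and Cldn11 0.14). The medians were 0.01 for 8 astrocyte markers (Slc1a2 -0.09, Aldoc 0.06), 0.08 for 8 microglia markers (C1qa 0.15, C1qb 0.11) and 0.02 for 8 endothelial markers (Cldn5 0.25, Ly6c1 0.10). The 10 striatal markers had a median of 0.43 (Ppp1r1b 0.48 ± 0.314, Drd2 0.64 ± 0.609), with sums of 191 to 994 CPM in MS mice and 186 to 639 CPM in SR mice. The part of these markers in the values of the subunits was not tested.

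The mitochondrially encoded subunits had log2 fold changes just below 0, and edgeR called none of them. mt-Co1, which carries the site where oxygen is reduced, had 11645 ± 1103 CPM in MS (SD, n = 8) and 12280 ± 585 CPM in SR mice (n = 12), a log2 fold change of -0.08 ± 0.0495 (edgeR adjusted p = 0.574). mt-Co2, which receives the electrons from cytochrome c, had -0.03 ± 0.0520, and mt-Co3, the third core subunit, had -0.04 ± 0.0546 (adjusted p = 0.850 and 0.809). None of the 3 had an unadjusted p under 0.05. On the log2 scale the mean of these 3 exceeded the mean of the 10 nuclear genes by 6.22 ± 0.228 in MS and by 6.46 ± 0.0785 in SR mice, a difference between log2 CPM values that is not corrected for length. Within this, A1 and A3 had the lowest excess, 5.91 and 5.96, while the MS mice C2 and C3, at 6.52 each, lay among the SR mice, which spanned 6.32 to 6.57. Over the 20 mice, r between the 2 means was -0.03, and 0.17 within groups.

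**Figure D4:**
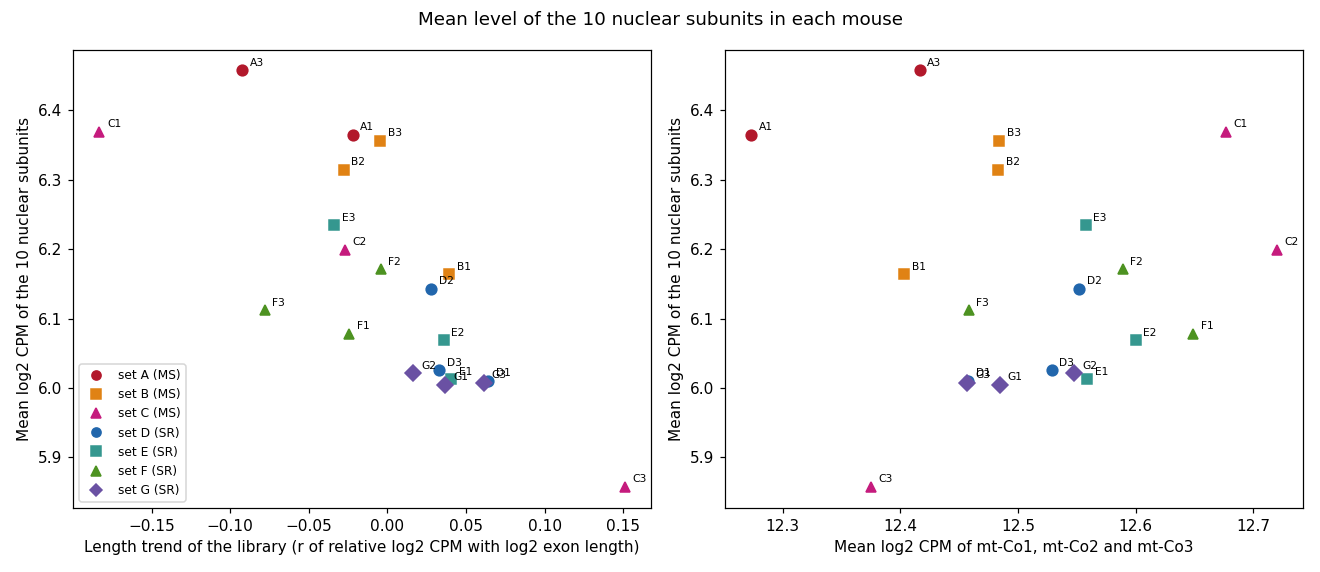
Mean log2 CPM of the 10 nuclear subunits in each of the 20 mice against the length trend of its library (left) and against the mean log2 CPM of mt-Co1, mt-Co2 and mt-Co3 (right), with shapes and colours for the sets. On the left the points fall from C1 and A3 at the top to C3 at the bottom right (r = -0.77), and on the right they show no such slope (r = -0.03).

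Other isoforms and associated subunits of complex IV were less abundant, apart from Cox7a2l and Ndufa4. Of 10 listed genes 7 passed the filter, 6 of them were higher in MS, 4 had an unadjusted p under 0.05 with a higher level, and edgeR called none. Such a p with a higher level was found in 6.62% of all genes tested. Cox7a2l, a relative of Cox7a2 known as a factor of supercomplex assembly, had 95.2 ± 8.66 CPM in MS and 85.6 ± 4.61 CPM in SR mice (log2 fold change 0.15 ± 0.0443, adjusted p = 0.189). Cox6b2, the testis isoform, was near the lower limit of detection with 2.09 ± 0.985 and 1.34 ± 0.501 CPM (log2 fold change 0.63 ± 0.268, adjusted p = 0.368). Cox7b2, Cox8b and Cox8c did not pass the filter.

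Of 29 factors listed for the assembly of complex IV, 27 were tested, 18 were higher in MS, 7 were higher and 1, Cox10, was lower with an unadjusted p under 0.05, and edgeR called none. An unadjusted p under 0.05 with a higher level was found in 6.62% of all genes tested. The median log2 fold change was 0.06, where that of the nuclear subunits was 0.20. Cox14, which acts with newly made mt-Co1, had 34.4 ± 5.197 CPM in MS and 29.1 ± 1.59 CPM in SR mice (log2 fold change 0.24 ± 0.0660, adjusted p = 0.161), and without C3 it was called (adjusted p = 0.00667). Tmem177, which acts with mt-Co2, had 8.35 ± 0.598 and 7.17 ± 0.661 CPM (log2 fold change 0.22 ± 0.0647, adjusted p = 0.189), and without C3 its log2 fold change was 0.20 (adjusted p = 0.190). The only other of the 27 called without C3 was Cox11, named after its values were seen, which delivers copper to mt-Co1 (adjusted p = 0.0428, and 0.257 with C3). Without C3, 0.525% of all genes were called higher. Cytochrome c itself, Cycs, had 91.1 ± 5.64 and 87.4 ± 3.59 CPM (log2 fold change 0.06 ± 0.0353, adjusted p = 0.532), and Hccs, the enzyme that attaches its haem, had a log2 fold change of 0.01 ± 0.0353.

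The 12 regulators listed, transcription factors and coactivators of respiratory genes, were not called either. Their median log2 fold change was 0.02, 7 were higher in MS, and 3 of these had an unadjusted p under 0.05, where 6.62% of all genes were higher with such a p. The pair with the smallest p were Esrra, an orphan nuclear receptor that drives mitochondrial genes, with 52.4 ± 3.34 CPM in MS and 47.1 ± 2.88 CPM in SR mice (log2 fold change 0.15 ± 0.0417, adjusted p = 0.161), and Gabpa, the ETS protein named above, with 30.6 ± 1.64 and 27.8 ± 1.90 CPM (log2 fold change 0.14 ± 0.0440, adjusted p = 0.232). Without C3, Esrra was called (adjusted p = 0.0484) and Gabpa was not (0.282), where 0.525% of all genes were called higher.

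The nuclear subunits of the other complexes lay on the same side of 0. Of 36 complex I subunits 34 were higher in MS, 20 with an unadjusted p under 0.05, with a median log2 fold change of 0.13. Ndufa2 (0.52 ± 0.111, adjusted p = 0.111) and Ndufs6 (0.30 ± 0.0820, adjusted p = 0.168) had the smallest p. All 9 complex III subunits were higher, 6 with an unadjusted p under 0.05, with a median of 0.19, and here Uqcrh (0.26 ± 0.0519, adjusted p = 0.111) and Uqcr10 (0.30 ± 0.0703, adjusted p = 0.118) came first. All 17 ATP synthase subunits were higher, 11 with an unadjusted p under 0.05, with a median of 0.17, led by Atp5l (0.30 ± 0.0663, adjusted p = 0.111) and Atp5h (0.21 ± 0.0554, adjusted p = 0.150). None of these was called by edgeR with all 20 mice. Without C3 it called 6 of 36, 3 of 9 and 6 of 17 of them, beside the 6 of 10 nuclear subunits of complex IV. C3 was singled out after its values for these 10 subunits were seen, and it was the lowest MS mouse for all 10. The counts without C3 therefore cannot compare complex IV with the other complexes. Over all genes, 0.525% were called higher without C3. With all 20 mice, 6.62% of all genes tested had an unadjusted p under 0.05 with a higher level. Whether complex IV differed from the other complexes was not tested.

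**Figure D5:**
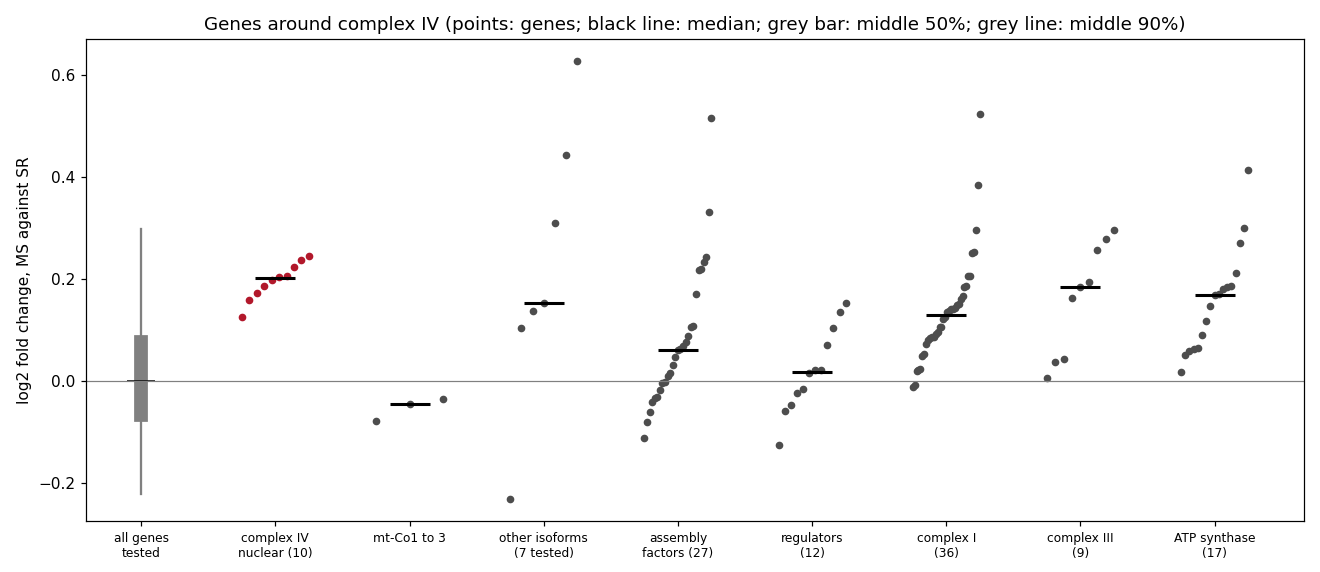
log2 fold change of MS against SR for each gene of the lists around complex IV, with black lines for medians, beside all 18146 genes tested (grey bar, middle 50%, and grey line, middle 90%). The 10 nuclear subunits of complex IV lie between 0.13 and 0.25, the 3 mitochondrially encoded ones between -0.08 and -0.03, and the assembly factors and regulators on both sides of 0.

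Some counts may hold reads of other genes. Cox7c has 4 annotated pseudogenes of near-identical sequence (at least 90% over at least 100 bases), among them Gm12338, identical over 192 bases, with 47 to 106 counts per library, 7.94% of the Cox7c counts on average, and a log2 fold change of 0.16 ± 0.121, and Gm10012 with 1 to 17 counts. Gm11273, annotated as protein-coding and 99.2% identical to Cox5b over 390 bases, had 3 to 17 counts. The near-identical pseudogenes of Cox5a (Gm11633), Cox6a1 (AC148174.2), Cox6c (Cox6c2 and Gm16399) and Cox7b (Gm38098, Gm19503 and Gm13771 had counts) had at most 6 counts in any library, and Cox4i1, Cox6b1, Cox7a2 and Cox8a had none. Cox4i1, Cox5a and Cox6c overlap a gene on the opposite strand, Emc8, Gm26631 and Vps13b. On the same strand, Gm20388 overlaps Cox4i1 over 5986 bases, with 0 counts in these libraries, and Gm22574 overlaps Cox7c over 60 bases, with a mean of 2.38 counts. The log2 fold changes of Emc8 and Vps13b were 0.00, and that of Gm26631 was 0.20 ± 0.165. The library kit keeps the strand, but whether counting used it is not given in the sources used here, so uncertain reads in these overlaps cannot be told apart.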

How the data were processed

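Poly-A RNA from 1 hippocampal library per mouse was measured in 9 MS and 12 SR mice, grouped by the treatment in their labels. The authors aligned reads with STAR 2.7.3a to GRCm38, obtained a count for each Ensembl gene by featureCounts, and deposited these raw counts, not normalized or filtered. Total counts were 17276810 to 30449055 per library. Such counts carry counting error, which is largest for genes of few counts. Symbols and exon lengths are those of GENCODE M21, which lacks 260 of the gene IDs.

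Counts were TMM-normalized, filtered by filterByExpr (minimum count 10) and tested with edgeR 4.0.16 (quasi-likelihood, robust, R 4.3.3), with Benjamini-Hochberg adjustment over 18146 genes and a threshold of 0.05. The library farthest from the median on the first component of a PCA (500 most variable genes) was left out. Log2 CPM used a prior count of 2. Alternatives included DESeq2 1.42.0, limma 3.58.1 (voom), other filters and scalings, added terms, and leaving out each library or set. The fits were tested on simulated counts for all 21 libraries, drawn independently for each mouse. The simulation held no sets of mice and no length trend, so it cannot show how the fits behave with these. Principal transcript lengths were an alternative added after seeing the data. The number in a mouse's name follows the animal numbers within its set and pairs nothing between sets.

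The genes and lists were chosen with earlier results of these data known. Named are the 10 subunits, mt-Co1 to mt-Co3, Cycs, the 2 genes of smallest p in every other list, the 5 genes most and least like the subunits' mean, and near-identical genes with counts.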

Additional observations from a re-analysis of the deposited data

Results flagged for a closer look

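The MS mouse C3 stood apart within its group for Cox6b1 and Cox7a2. Its gap to the next MS mouse was 0.636 of the group's range for Cox6b1 and 0.679 for Cox7a2, above Dixon's critical value for 8 mice, which chance passes in about 1 of 20 groups. For both genes C3 was the lowest MS mouse, with 47.1 CPM of Cox6b1 and 33.5 CPM of Cox7a2. The other 8 subunits were not set apart in this way in MS mice, and the 12 SR mice were not tested by it, since it was applied only to groups of 4 to 10. The 10 subunits were measured in the same 8 MS mice and varied together, so these tests are not separate. The share of all genes with such a gap is not given here. In SR mice E3 had 134.3 CPM of Cox8a where the next mouse, F3, had 111.7 CPM.

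The left-out MS library A2, which was left out of the main comparisons, had levels above the highest SR mouse for 4 of the 10 subunits. It had 351.3 CPM of Cox4i1, 154.7 CPM of Cox6a1, 45.6 CPM of Cox7a2 and 42.5 CPM of Cox7b. The other subunits lay within the SR range in A2. Among them Cox5a had 43.1 CPM, where SR mice had 40.7 to 47.9 CPM, and Cox6b1 had 54.7 CPM, where SR mice had 47.5 to 57.3 CPM. Striatal markers were high and hippocampal markers low in this library, as given above, and their part in these values was not tested.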

How the results depend on the processing

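All 10 genes were higher in MS in each of 41 alternatives, and their median log2 fold change, 0.20, kept its direction. It moved in each by less than 0.144, the SD between mice within groups of the genes' mean log2 CPM, which is a wide limit. The median was 0.15 with the length trend as a term and 0.15 among the higher animal numbers. It was 0.17 to 0.25 without 1 library and 0.15 to 0.25 without 1 set. The number of subunits called was 0 and changed to 2 with DESeq2 and 5 among the lower animal numbers, with 0 to 6 without 1 library and 0 to 8 without 1 set. The number of all genes called was 2 and became 119 with DESeq2, 230 among the lower animal numbers, 1 with all 21 libraries or no filter on low counts, and 0 with the choroid plexus score as a term, the random block, summed sets or the higher animal numbers alone. It was 0 to 109 without 1 library and 0 to 340 without 1 set. The highest values came without C3 (6 subunits, 109 genes), without C2 (1 subunit, 109 genes) and without set C (8 subunits, 340 genes), and the cause was not tested. The number of subunits differing among MS sets was 0 and became 2 without a filter on low counts, the cause not tested. The share of all genes called in that unfiltered fit is not given here, so the 2 cannot be set against it. The interaction and the SR sets gave 0 in all alternatives run. The level per kb of all 10 genes moved by more than 1 SD with principal transcript lengths. Depth limits the comparison of Cox5a in SR mice, where counting error makes up much of the spread.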
